A study of Mus musculus with 10 samples.

Results

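Oligodendrocyte precursor cells and the committed precursors they give rise to were followed here through 10 genes: Pdgfra, Cspg4, Gpr17, Sox10, Olig1, Olig2, Bcas1, Enpp6, Vcan and Neu4. The genes were taken by symbol, each from the Ensembl identifier that carries it, and all 10 were found among the 14276 genes of the count table. They were measured by sequencing of total RNA, depleted of ribosomal RNA, from cerebral cortex (C57BL/6 mice, 3 months of age). A conditional knockout of Brap (BrapcKO, 5 libraries) was compared with control littermates (5 libraries). Brap encodes BRCA1-associated protein, a ubiquitin ligase known to restrain Ras signalling to the MAP kinases. In the allele names, flox is an allele that Cre recombinase can delete, ko is a deleted allele and wt is the normal allele. Control libraries 08, 22 and 23 were flox/wt Cre- and control libraries 09 and 24 were flox/flox Cre-. BrapcKO libraries 04, 07 and 21 were flox/ko Cre+ and BrapcKO libraries 05 and 06 were flox/flox Cre+. No source used here gives the promoter that drives Cre or the deleted exons. Cre was present in all 5 BrapcKO libraries and in 0 control libraries, so loss of Brap and presence of Cre cannot be told apart. The labels do not state that the libraries are of separate mice, so the p-values rest on variation between libraries that may be in part technical.

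Oligodendrocyte precursor cells persist in the adult cortex, where they divide slowly and respond to platelet-derived growth factor through the receptor encoded by Pdgfra. As a precursor commits to the lineage it loses Pdgfra and the proteoglycan genes Cspg4 and Vcan, passes through a state marked by Gpr17, Neu4, Bcas1 and Enpp6, and then turns on myelin genes. The transcription factors encoded by Olig1, Olig2 and Sox10 are present from the precursor to the myelinating cell.

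Total counts ran from 17188901 to 28991874 per library, so that 1 CPM (counts relative to the library total, scaled by the TMM method) rested on 17.2 to 29 counts. The titles carry a code of unstated meaning, B1 in 6 libraries (control 08 and 09, BrapcKO 04 to 07) and B2 in 4 (control 22 to 24, BrapcKO 21), and B2 libraries were the deeper, at 26356508 counts or more. Control 23 and BrapcKO 05, 06, 07 and 21 carried 119 to 147 CPM of the Y-linked gene Ddx3y and the other 5 libraries 0.0526 CPM or less, so male and female tissue was spread unevenly over the groups. Brap itself was not lower in BrapcKO: it stood at 88.4 ± 8.58 CPM (SD, n = 5) in controls and 103.8 ± 9.15 CPM (SD, n = 5) in BrapcKO, a log2 difference of 0.23 with an adjusted p of 0.2. A single count per gene does not show whether part of the transcript was lost.

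Across the 10 genes, 1 rose in BrapcKO cortex, Vcan, and 0 fell (edgeR quasi-likelihood test, adjusted p under 0.05 over all genes). By the same test 617 genes of the table changed, which is 4.32%, with 1.83% higher and 2.49% lower. By unadjusted edgeR p under 0.05, 1 of the 10 passed, beside 18.5% of all genes. Groups that did not overlap in CPM were found for 1 of the 10, again Vcan, and for 6.82% of all genes. Of the 10 log2 differences 6 were above 0, and their median was 0.127, beside 0.003 for all genes. With the title code as a term in the model, Vcan was again the 1 gene of the 10 to pass, in a comparison where 8.07% of genes did, and the median was 0.137. In RNA from whole tissue, a change in the number of cells of a type and a change in the RNA per cell cannot be told apart, and this holds for every value that follows.

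**Figure D1:**
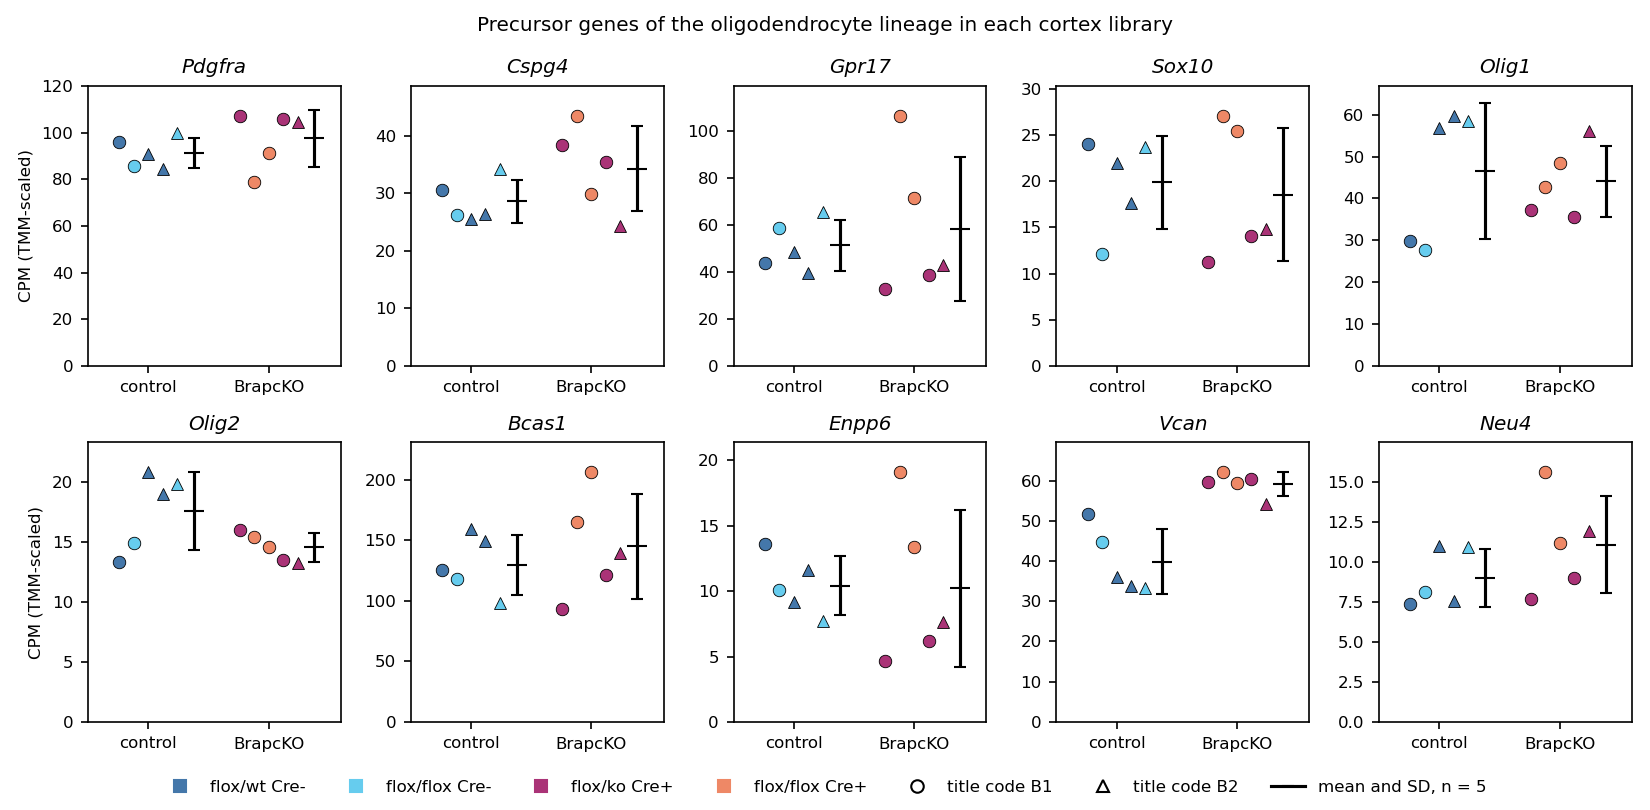
CPM of the 10 genes in each library, control beside BrapcKO, with each point a library, its colour the genotype label, its shape the title code (B1 or B2) and the bar the group mean and SD (n = 5). Vcan is the panel in which every BrapcKO library (54.1 to 62.1 CPM) lies above every control library (33.3 to 51.6 CPM).

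Vcan (ENSMUSG00000021614.16, GRCm38 chr13:89655312-89742509, minus strand) encodes versican, a large chondroitin sulfate proteoglycan of the lectican family that precursor cells place in the extracellular matrix. Its level was 51.6, 44.7, 36.1, 33.7 and 33.3 CPM in control libraries 08, 09, 22, 23 and 24. In BrapcKO libraries 04, 05, 06, 07 and 21 it was 59.7, 62.1, 59.4, 60.3 and 54.1 CPM. The BrapcKO values lay close together, while the control values fell into a higher pair coded B1 and a lower trio coded B2. The means were 39.9 ± 8.02 CPM in controls and 59.1 ± 3.01 CPM in BrapcKO (SD, n = 5 each). Vcan was therefore 1.48-fold higher, a log2 difference of 0.57 (SE 0.125, 95% interval 0.30 to 0.84, adjusted p = 0.028 by edgeR). The two-sided exact permutation test over libraries gave p = 0.00794, the smallest that 5 against 5 can give. Its arrangements did not take the title code into account, which is uneven between the groups. Under the model that held the title code, the rise in Vcan was 0.45 (SE 0.0849, adjusted p = 0.007).

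Within B1, Vcan had a log2 difference of 0.33 that missed the threshold (adjusted p = 0.098). Its 4 BrapcKO libraries lay above both controls there, a pattern not counted over all genes. The exact permutation p for Vcan within B1 was 0.0667, the smallest that 2 against 4 can give. Within B2 the single BrapcKO library, whose spread is assumed to be that of the other groups, was higher by 0.65 (adjusted p = 0.027), the 1 gene of the 10 called in a comparison where 1.61% of genes were. Vcan also differed with the code itself and was lower in B2 than in B1 by a log2 difference of -0.35 (SE 0.0871, adjusted p = 0.01). Within B1, 0 of the 10 genes passed, in a comparison where 2.76% of all genes did; 3 of the 10 had an unadjusted edgeR p under 0.05, beside 16.4% of all genes, and no other tool was run within B1. The call on Vcan was lost without any 1 of 5 libraries, which were control 22, control 23, BrapcKO 04, BrapcKO 06 and BrapcKO 07 (adjusted p 0.053 to 0.073), or when a Y-linked score was added (log2 difference 0.66, adjusted p = 0.12). Over the 10 leave-outs its log2 difference ran from 0.51 to 0.68.

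The 250 bases before the start of Vcan are shown because it was the 1 gene of the 10 called, and those of Enpp6 because its level spread most over the libraries. Both are RefSeq promoters of GRCm38.p6, 5′ to 3′ on the gene's own strand, with a motif match in capitals. In Vcan (chr13:89742513-89742762, minus strand) the capitals mark a match to CANNTG, the E-box read by basic helix-loop-helix factors such as OLIG1 and OLIG2. In Enpp6 (chr8:46986637-46986886, plus strand) they mark ACAATG, a form of the site read by SOX proteins.
Vcan: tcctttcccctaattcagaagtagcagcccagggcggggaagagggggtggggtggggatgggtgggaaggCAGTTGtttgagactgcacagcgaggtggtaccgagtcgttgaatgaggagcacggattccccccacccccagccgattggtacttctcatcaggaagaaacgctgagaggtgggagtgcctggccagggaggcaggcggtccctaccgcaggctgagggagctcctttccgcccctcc
Enpp6: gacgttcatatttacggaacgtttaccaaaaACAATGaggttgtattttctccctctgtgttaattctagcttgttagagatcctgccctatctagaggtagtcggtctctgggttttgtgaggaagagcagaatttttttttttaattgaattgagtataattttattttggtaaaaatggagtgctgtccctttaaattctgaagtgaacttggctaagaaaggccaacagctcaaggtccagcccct
Promoters were at hand for 6 of the 10 genes (Pdgfra, Cspg4, Olig2, Enpp6, Vcan and Neu4). Searched on both strands, CANNTG was in 3 of these 6 (Pdgfra, Vcan and Neu4) and in 66.2% of 32817 promoters of the same length. ACAAAG was in 0 of the 6 and in 16.5% of all. ACAATG, a motif chosen after the sequences were seen, was in 2 of the 6 (Olig2 and Enpp6) and in 10.7% of all. A match describes the letters of the window and is no evidence of binding.

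Pdgfra (ENSMUSG00000029231.15, chr5:75152292-75198215, plus strand), the receptor through which precursor cells respond to the mitogen PDGF-AA, was the steadiest of the 10. It stood at 95.9, 85.8, 91.1, 84.6 and 99.9 CPM in control libraries 08, 09, 22, 23 and 24 and at 107.3, 78.8, 91.4, 105.9 and 104.7 CPM in BrapcKO libraries 04, 05, 06, 07 and 21. The groups overlapped, and the highest library was 1.36 times the lowest. The log2 difference of Pdgfra was 0.09 (SE 0.0975, 95% interval -0.12 to 0.31, adjusted p = 0.65). Within the BrapcKO group the 3 flox/ko Cre+ libraries (104.7 to 107.3 CPM) lay above both flox/flox Cre+ libraries (78.8 and 91.4 CPM).

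Cspg4 (ENSMUSG00000032911.6, chr9:56865033-56899870, plus strand) encodes the NG2 proteoglycan, a surface protein of precursor cells that pericytes also carry. Its level was 30.6, 26.2, 25.6, 26.4 and 34.3 CPM in the controls and 38.4, 43.5, 29.9, 35.4 and 24.4 CPM in BrapcKO, in the library order used for Pdgfra. The 3 highest libraries were BrapcKO libraries of B1, but BrapcKO 21 was the lowest of all 10, so the groups overlapped. The log2 difference of Cspg4 was 0.26 (SE 0.152, 95% interval -0.07 to 0.59, adjusted p = 0.4). Summed over 14 markers of pericytes, smooth muscle and vascular fibroblasts, the level was 263.6 to 385.2 CPM in controls and 296.3 to 424.7 CPM in BrapcKO, with 1 of the 14, Notch3, higher by the test. Their part in the level of Cspg4 was not tested.

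Among the transcription factors, none of the 3 passed the test between the groups, and Olig1 differed with the title code. Olig1 (ENSMUSG00000046160.6, chr16:91269772-91271933, plus strand), a basic helix-loop-helix factor needed for maturation and repair of myelin, stood at 27.6 to 48.5 CPM in the 6 B1 libraries (36.9 ± 7.85, SD, n = 6) and at 56.2 to 59.7 CPM in the 4 B2 libraries (57.8 ± 1.59, SD, n = 4). The log2 difference of Olig1, B2 from B1, was 0.80 (SE 0.129, adjusted p = 0.00055). In that comparison 25.1% of genes passed, and 2 of these 10, Olig1 and Vcan. Between BrapcKO and control the log2 difference of Olig1 was -0.08 (SE 0.238, adjusted p = 0.89) and became 0.31 (SE 0.128, adjusted p = 0.18) with the code as a term. Within B1, controls stood at 29.9 and 27.6 CPM and BrapcKO at 37.2, 42.8, 48.5 and 35.6 CPM. The B1 log2 difference of Olig1 was 0.51 (adjusted p = 0.06), with an exact permutation p of 0.0667, the smallest that 2 against 4 can give. In B2 the single BrapcKO library, at 56.2 CPM, was the lowest of the 4.

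Olig2 (ENSMUSG00000039830.9, chr16:91225457-91228677, plus strand), the related factor that specifies the lineage and lies beside Olig1, was at 13.3, 14.9, 20.8, 19 and 19.8 CPM in the controls and at 16, 15.4, 14.6, 13.5 and 13.2 CPM in BrapcKO. Only the 3 B2 controls stood above 16 CPM, and the groups overlapped. The log2 difference of Olig2 was -0.27 (SE 0.133, 95% interval -0.57 to 0.02, adjusted p = 0.3). It was 0.08 within B1 (adjusted p = 0.82) and -0.59 within B2 (adjusted p = 0.09).

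Sox10 (ENSMUSG00000033006.10, chr15:79154908-79165240, minus strand), an HMG-box factor that acts with OLIG2 and activates myelin genes, was at 24.1, 12.1, 22, 17.6 and 23.7 CPM in the controls. In BrapcKO libraries 04, 05, 06, 07 and 21 it was at 11.3, 27.1, 25.5, 14.1 and 14.8 CPM. The groups overlapped, and the BrapcKO libraries split by genotype label, with both flox/flox Cre+ libraries above every control and all 3 flox/ko Cre+ libraries below 15 CPM. Between the groups as a whole the log2 difference of Sox10 was -0.10 (SE 0.268, 95% interval -0.69 to 0.49, adjusted p = 0.87).

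Gpr17 (ENSMUSG00000052229.5, chr18:31942997-31949636, minus strand) encodes a G protein-coupled receptor that marks committed precursors and is shut off before they mature. It was at 43.7, 58.9, 48.6, 39.7 and 65.4 CPM in control libraries 08, 09, 22, 23 and 24. In BrapcKO libraries 04, 05, 06, 07 and 21 it was at 32.5, 106.5, 71.5, 38.7 and 42.8 CPM. The BrapcKO group thus held both the highest 2 and the lowest 2 of the 10 libraries. Group means were 51.2 ± 10.7 CPM in controls and 58.4 ± 30.8 CPM in BrapcKO (SD, n = 5 each), with a log2 difference of 0.19 (SE 0.31, 95% interval -0.51 to 0.88, adjusted p = 0.79). Gpr17 shares 188 of its 5195 exon bases with Lims2 on the opposite strand, and no source used here says whether counting used strand. Lims2 stood at 6.71 ± 0.755 CPM in controls and 6.4 ± 0.786 CPM in BrapcKO (SD, n = 5 each).

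By genotype label, Gpr17 was at 44 ± 4.44 CPM in flox/wt Cre- (SD, n = 3), 62.1 ± 4.65 in flox/flox Cre- (n = 2), 38 ± 5.18 in flox/ko Cre+ (n = 3) and 89 ± 24.7 in flox/flox Cre+ (n = 2). Libraries labelled flox/flox, with or without Cre, lay between 58.9 and 106.5 CPM, and those labelled flox/wt or flox/ko lay between 32.5 and 48.6 CPM. Within B1 and the libraries high in Ddx3y, flox/flox Cre+ libraries 05 and 06 were at 106.5 and 71.5 CPM and flox/ko Cre+ library 07 was at 38.7 CPM. That comparison holds 1 flox/ko Cre+ library, and the cause of the difference was not tested. Between flox/ko Cre+ and flox/flox Cre+ the log2 difference of Gpr17 was -1.23 (SE 0.185, 95% interval -1.64 to -0.81), which did not pass after adjustment over all genes (adjusted p = 0.26 by edgeR).

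**Figure D2:**
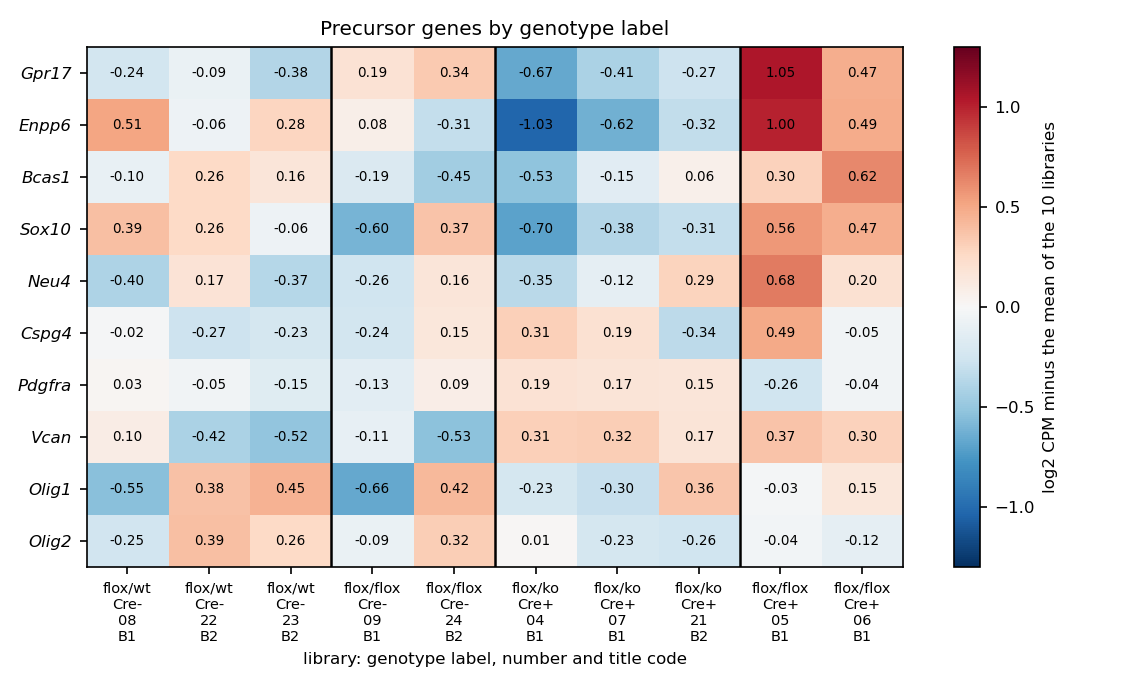
Heat map of log2 CPM of each of the 10 genes (rows) in each library (columns, by genotype label, number and title code), as the difference from the gene's mean over the 10 libraries, red above and blue below. In the rows of Gpr17, Enpp6, Bcas1 and Sox10 the flox/flox Cre+ columns lie above the flox/ko Cre+ columns (for Gpr17, 1.05 and 0.47 against -0.67, -0.41 and -0.27).

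Bcas1 (ENSMUSG00000013523.13, chr2:170346991-170427845, minus strand) marks newly formed oligodendrocytes that are starting to myelinate. It was at 125.1, 117.7, 159.7, 149.1 and 98 CPM in the controls and at 92.9, 165.2, 206.3, 121 and 139.9 CPM in BrapcKO, in the same library order. Both flox/flox Cre+ libraries lay above every other library and BrapcKO 04 lay below all. The log2 difference of Bcas1 between the groups was 0.16 (SE 0.202, 95% interval -0.28 to 0.60, adjusted p = 0.72).

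Enpp6 (ENSMUSG00000038173.15, chr8:46986887-47096762, plus strand), a choline phosphodiesterase made as oligodendrocytes newly form, was the most variable of the 10. It was at 13.6, 10.1, 9.14, 11.6 and 7.71 CPM in the controls and at 4.67, 19.1, 13.4, 6.21 and 7.65 CPM in BrapcKO. The highest library was 4.09 times the lowest, and the 3 lowest libraries were the 3 flox/ko Cre+ libraries. The means of 10.4 ± 2.27 and 10.2 ± 5.97 CPM (SD, n = 5 each) gave a log2 difference of -0.03 (SE 0.348, 95% interval -0.80 to 0.73, adjusted p = 0.97). Enpp6 rested on 90 to 340 reads per library, about as few as Neu4 (145 to 337).

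Neu4 (ENSMUSG00000034000.15, chr1:94020451-94028334, plus strand), a sialidase that trims sialic acid from glycoproteins and glycolipids, was at 7.38 to 11 CPM in controls and 7.67 to 15.6 CPM in BrapcKO. The groups overlapped, with the top value in BrapcKO 05. Its log2 difference was 0.30 (SE 0.199, 95% interval -0.14 to 0.73, adjusted p = 0.47), or 0.41 (adjusted p = 0.26) with the code in the model.

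**Figure D3:**
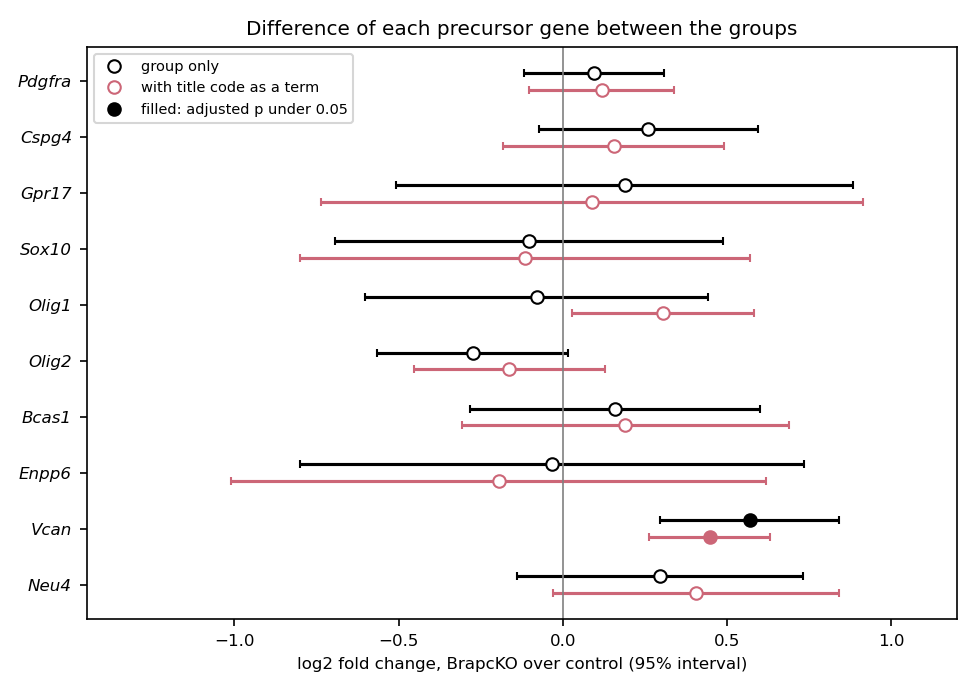
Log2 fold change of each of the 10 genes, BrapcKO over control, in the model of group alone and in that with the title code added, with bars for the 95% interval and filled points where the adjusted p was under 0.05. Vcan is the gene whose adjusted p passed in both models (0.57 and 0.45), and the point for Olig1 crosses 0 between the models (-0.08 and 0.31).

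Taking the alleles apart, the Cre+ libraries were compared with the Cre- libraries in a model of the 4 genotype labels. Both flox/flox Cre+ libraries were B1 and high in Ddx3y (119 and 133 CPM), and both flox/flox Cre- libraries, of B1 and B2, lacked it (0.0508 and 0 CPM). In that contrast Cre and the Y-linked difference cannot be told apart. Against flox/flox Cre-, flox/flox Cre+ gave log2 differences of 0.79 for Bcas1 (SE 0.21), 0.87 for Enpp6 (SE 0.293), 0.55 for Sox10 (SE 0.286) and 0.52 for Gpr17 (SE 0.206). None of the 10 passed after adjustment (adjusted p of these 4 genes 0.22 to 0.58), in a comparison where 0.0771% of genes did. By unadjusted edgeR p under 0.05, 4 of the 10 (Bcas1, Enpp6, Gpr17 and Vcan) were higher and 0 lower, beside 5.11% of all genes higher. DESeq2 called 1, Bcas1 (adjusted p = 0.031), and limma-voom 0. The median of the 10 was 0.502, beside -0.003 for all genes. Single libraries moved these values: Sox10 was 0.154 without control 09 and 1.116 without control 24, and Gpr17 was 0.205 without BrapcKO 05 and 0.777 without BrapcKO 06.

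Against flox/wt Cre-, flox/ko Cre+ gave log2 differences of -0.88 for Enpp6 (SE 0.241, adjusted p = 0.14), -0.67 for Sox10 (SE 0.235, adjusted p = 0.27), -0.29 for Bcas1 (adjusted p = 0.56) and -0.21 for Gpr17 (adjusted p = 0.72). Again 0 of the 10 passed by edgeR, where 0.806% of genes did, and 3 had an unadjusted p under 0.05, beside 12.5% of genes. DESeq2 called 1, Enpp6 (adjusted p = 0.031), and limma-voom 0. The median of the 10 was -0.198. Over leave-outs Bcas1 ran from -0.447 (without BrapcKO 21) to -0.147 (without BrapcKO 04) and Gpr17 from -0.316 to -0.109 (the same libraries). Vcan was higher in both comparisons, by 0.64 against flox/flox Cre- and 0.52 against flox/wt Cre-, and passed in neither (adjusted p = 0.33 and 0.25). With the title code beside the genotype labels, Vcan passed against flox/wt Cre- (0.42, adjusted p = 0.049).

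The difference between these contrasts was tested in the same model, and 0 genes of the table passed (0%). Its log2 value was -1.75 for Enpp6, -1.22 for Sox10, -1.08 for Bcas1 and -0.73 for Gpr17, each with an adjusted p of 1. These were the 4 of the 10 with an unadjusted p under 0.05, beside 3.19% of all genes, and DESeq2 and limma-voom called 0 of the 10. The flox/flox contrast is part of this difference, so alleles and the Y-linked difference given above cannot be told apart in it.

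Set directly against flox/flox Cre+, flox/ko Cre+ was lower in 9 of the 10 genes, with a median log2 difference of -0.326 beside 0.003 for all genes. Besides Gpr17, the lower values were -1.39 for Enpp6 (adjusted p = 0.52), -0.98 for Sox10 (adjusted p = 0.79) and -0.66 for Bcas1 (adjusted p = 0.79), and Pdgfra was the exception at 0.32 (adjusted p = 0.95). No gene of the table passed by edgeR (0%), while 5 of the 10 had an unadjusted p under 0.05, beside 4.78% of all genes. DESeq2 called 2 of the 10, Gpr17 (adjusted p = 1.6e-05) and Enpp6 (adjusted p = 0.0044), and limma-voom 0. Leaving out a flox/flox Cre+ library leaves 1, whose spread is then assumed to be that of the other labels. Gpr17 was at -1.49 (adjusted p = 0.024 by edgeR) without BrapcKO 06 and at -0.91 (adjusted p = 1) without BrapcKO 05, the library with the highest Gpr17.

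Markers of other cells were compared between flox/ko Cre+ and flox/flox Cre+, where no gene of the table passed, markers included. The log2 difference was below 0 for 25 of 25 markers of mature oligodendrocytes and myelin (median -0.335) and 12 of 12 of microglia (median -0.94). It was below 0 for 0 of 11 of striatum (median 0.421), beside a median of 0.003 for all genes. The other lists of cell types are not given for this comparison. The summed microglial markers were at 546.4, 562.5 and 590.2 CPM in flox/ko Cre+ and 1542.4 (BrapcKO 05) and 638.8 CPM (BrapcKO 06) in flox/flox Cre+. Their part in the values of Gpr17, Enpp6, Sox10 and Bcas1 was not tested. Between the control labels, flox/flox Cre- and flox/wt Cre-, 0 genes passed by edgeR (0%), DESeq2 and limma-voom called 0 of the 10, and Gpr17 was higher in flox/flox Cre- by 0.50 (adjusted p = 1). It was the 1 gene of the 10 with an unadjusted p under 0.05 there, beside 2.37% of all genes.

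The 10 genes differed widely in level. Counts per kilobase of exon, relative to library totals (FPKM), the scale on which levels can be set side by side between genes, had a median over libraries of 35.1 for Bcas1 and 21.1 for Olig1. Then came Pdgfra at 9.34, Gpr17 at 8.88, Sox10 at 6.5 and Olig2 at 5.99 FPKM. Vcan at 3.65, Cspg4 at 2.53, Neu4 at 2.15 and Enpp6 at 1.5 FPKM were the lowest. Neighbours in this order overlapped in range over the libraries, except that Olig1 (12.8 to 27.6 FPKM) was always above Pdgfra (7.87 to 10.7 FPKM) and Olig2 (5.21 to 8.24 FPKM) always above Vcan (2.3 to 4.29 FPKM). Part of the exons of Pdgfra, Olig1 and Bcas1 is shared with antisense transcripts that are not in the count table (456 bases with Gm42802, 157 with Gm15966 and 440 with Bcas1os1).

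Among 17 other markers of oligodendrocyte precursors, 2 rose and 0 fell, with a median log2 difference of 0.103. Here and in the lists that follow, such counts stand beside 4.32% of all genes changed. By unadjusted edgeR p under 0.05, 4 were higher and 3 lower, beside 18.5% of all genes. The 3 lower were Susd5 (log2 difference -0.556, adjusted p = 0.2), Rlbp1 (-0.466, adjusted p = 0.26) and Bcan (-0.262, adjusted p = 0.13). Cacng4, an auxiliary subunit of AMPA receptors, rose from 19.9 ± 1.44 to 27.4 ± 3.25 CPM (SD, n = 5 each; log2 difference 0.47, adjusted p = 0.028). Pcdh15, a protocadherin, rose from 35.4 ± 12.7 to 64.9 ± 9.26 CPM (SD, n = 5 each; log2 difference 0.87, adjusted p = 0.042). With the title code as a term 4 rose, in a comparison where 8.07% of genes passed. They were Cacng4, Pcdh15, Lhfpl3 (0.59, adjusted p = 0.0082) and Megf11 (1.10, adjusted p = 0.049). Within B1 the log2 difference of Megf11 was 0.558 (adjusted p = 0.33). The groups overlapped there, with controls at 44.6 and 33.6 CPM and BrapcKO at 49.1, 43.4, 54.8 and 83.2 CPM. Within B2 the single BrapcKO library was at 61.8 CPM and the controls were at 12.1 to 19.6 CPM. The call on Cacng4 was lost in 6 of the 10 leave-outs (adjusted p 0.056 to 0.079), those of control 08, 09 and 23 and BrapcKO 04, 07 and 21. That on Pcdh15 was lost in 8 (adjusted p 0.063 to 0.11), all but control 08 and BrapcKO 21.

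Of 13 other genes of committed precursors and newly formed oligodendrocytes, 1 rose and 0 fell (median 0.087). It was Casr, the calcium-sensing receptor, which went from 0.966 ± 0.241 to 2.3 ± 0.468 CPM (SD, n = 5 each; adjusted p = 0.018), a call that needed control 23 and BrapcKO 07 (without either, adjusted p 0.054 to 0.055). Of 22 other transcription factors of the lineage, 1 rose and 0 fell (median -0.103). It was Sox11, a factor of immature neural cells, at 38.7 ± 2.54 against 53.5 ± 9.13 CPM (SD, n = 5 each; log2 difference 0.47, adjusted p = 0.042), and its call held without BrapcKO 06 but was lost in each of the other 9 leave-outs (adjusted p 0.051 to 0.12).

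Of 7 PDGF ligands and receptors, Pdgfra among them, 0 rose and 0 fell (median 0.094), and 0 had an unadjusted edgeR p under 0.05 (18.5% of all genes) or a call by DESeq2 or limma-voom. Pdgfa, the ligand of the precursor receptor, differed by -0.16 (adjusted p = 0.3), and Pdgfb, made largely by vessels, by 0.30 (adjusted p = 0.3). Of 20 other receptors and ligands of growth factors and signals in the lineage, 2 rose and 0 fell by edgeR (median 0.023). DESeq2 called 3 higher and 2 lower, and limma-voom 2 higher. By unadjusted edgeR p under 0.05, 4 were higher and 4 lower, beside 18.5% of all genes in either direction. The 4 lower were Lpar1 (log2 difference -0.57, adjusted p = 0.079), Lingo1 (-0.419, adjusted p = 0.084), Fgfr2 (-0.325, adjusted p = 0.15) and Dll1 (-0.458, adjusted p = 0.25). The 2 that rose by adjusted p were Cxcr4, a chemokine receptor, and Adgrg1, an adhesion receptor. Cxcr4 stood at 1.36 ± 0.336 in controls against 2.68 ± 0.364 CPM in BrapcKO (SD, n = 5 each, adjusted p = 0.03). Adgrg1 stood at 37.6 ± 3.32 against 50.1 ± 5.81 CPM (SD, n = 5 each, adjusted p = 0.042). Cxcr4 lost its call in 6 leave-outs (adjusted p 0.051 to 0.075), those of control 08, 09 and 23 and BrapcKO 05, 06 and 07. Adgrg1 lost its call in 8 (adjusted p 0.064 to 0.12), all but control 08 and BrapcKO 05. With the title code as a term Igf1r, the receptor for insulin-like growth factor, fell by 0.35 on the log2 scale (adjusted p = 0.049).

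In the families of the enzymes and the matrix, Vcan was the 1 gene to rise of 11 lecticans and their binding partners, with 0 falling and a median of -0.031. By unadjusted edgeR p under 0.05, 1 was higher and 1 lower, beside 18.5% of all genes. Bcan, of the same list, was at 156.9 to 181.6 CPM in controls and 121 to 154.2 CPM in BrapcKO (log2 difference -0.262, adjusted p = 0.13). Its groups did not overlap, as was found for 6.82% of all genes. Of 4 sialidases 1 fell and 0 rose. It was Neu2, the cytosolic sialidase, at 4.39 ± 0.685 in controls against 2.15 ± 0.249 CPM in BrapcKO (SD, n = 5 each; log2 difference -1.03, adjusted p = 0.0071), and its call held in all 10 leave-outs. The 3 other sialidases, Neu4 among them, had log2 differences above 0. Of 6 measured genes of the ENPP family, Enpp6 among them, 0 rose and 0 fell by edgeR, DESeq2 and limma-voom, and 1 had an unadjusted edgeR p under 0.05, beside 18.5% of all genes. It was Enpp2, autotaxin, which differed by -0.88 (adjusted p = 0.26). Control 24 stood at 1319.1 CPM of Enpp2 and the other controls at 310.8 to 609.3 CPM. Over leave-outs the log2 difference of Enpp2 ran from -1.06 (without BrapcKO 04) to -0.44 (without control 24). Of 9 measured genes of cell division 0 passed by edgeR, DESeq2 and limma-voom, while 2 had an unadjusted edgeR p under 0.05 (Mki67 1.11, adjusted p = 0.19; Top2a 1.04, adjusted p = 0.22), beside 18.5% of all genes.

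**Figure D4:**
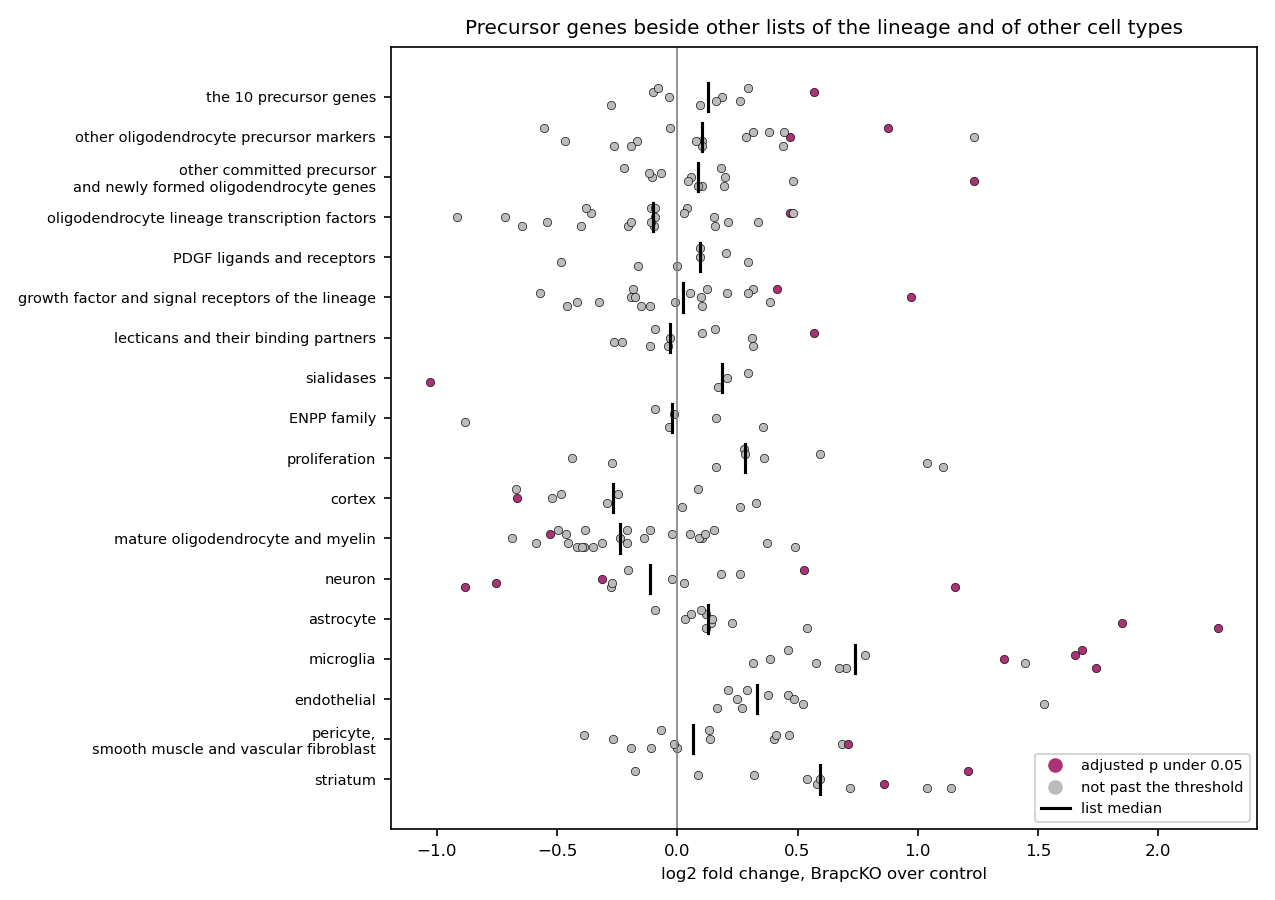
Log2 fold change, BrapcKO over control, of each gene in the lists of the lineage and of other cell types, with each point a gene, the bar the list median and purple points those that passed the test (grey, not past the threshold). The 10 precursor genes centre near 0 (median 0.127), with Vcan as the purple point, and the microglial list lies highest (median 0.741).

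Markers of other cells moved between the groups beside these values. Of 12 microglial markers 4 rose (Ctss, C1qa, C1qb and C1qc), and their summed level was 380.2 to 407.2 CPM in controls and 546.4 to 1542.4 CPM in BrapcKO. Of 12 astrocyte markers 2 rose, Gfap and Vim. Of 11 markers of striatum, which borders the cortex, 2 rose (Penk and Rgs9), DESeq2 called 5, and 8 rose with the title code in the edgeR model (median 0.592 without and 0.778 with it), with sums of 558.7 to 1245.8 CPM in controls and 977.7 to 1854 CPM in BrapcKO. Of 25 markers of mature oligodendrocytes and myelin, 1 fell, Car2, with a median of -0.239 and sums of 4136.5 to 5690.8 CPM in controls and 3250.7 to 4387.8 CPM in BrapcKO. Of 10 cortical markers 1 fell, Neurod6. Of 12 neuronal markers 2 rose and 3 fell. Of 10 endothelial markers 0 passed (3 by unadjusted edgeR p under 0.05, beside 18.5% of all genes, 1 by DESeq2, 0 by limma-voom). No marker in any of these lists was at 0 in all libraries, and their part in the level of Vcan was not tested.

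The genes whose log2 CPM followed each of the 10 most closely over the 10 libraries are given as a description, since the libraries share their groups, title code and depth. Each r is among the highest of a search over the genes of the table, and how high chance alone would reach was not tested. For Vcan they were Tmed8 (Pearson r = 0.984), Ints2 (0.967) and Pcdh15 (0.967), the last also a marker of precursor cells. For Gpr17 they were Aspm (0.904), Susd3 (0.903) and Gpx7 (0.891), and Aspm was also the closest to Neu4 (0.875). For Enpp6 they were Litaf (0.934), Knop1 (0.903) and Cyp27a1 (0.896), and for Bcas1 Glipr2 (0.91), Tnfaip6 (0.908) and Txndc12 (0.884). For Olig1 they were the histone genes Hist1h4j (0.97) and Hist1h4k (0.969), near-identical copies among which reads may be divided, and Ccdc85b (0.968). The closest to Pdgfra was AA986860 (0.928), to Cspg4 Mov10 (0.974), to Olig2 Ccno (0.969) and to Sox10 Spidr (0.892).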

How the data were processed

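Per the labels' protocols, total RNA from cerebral cortex was depleted of ribosomal RNA and sequenced. The deposited values are raw counts of reads per gene, 1 column per library, made by the authors with FastQC, Subread and featureCounts, and DESeq2 and edgeR are also named, per the submitters' processing notes (builds mm10 and GRCm38; order, versions and strand setting not given in the sources used here). Of 14276 identifiers 14271 matched GENCODE M21, 13492 of them in the same version, which gave symbols and coordinates. The fifth-highest CPM of a gene was never under 0.582, so the table had been filtered for low genes before deposit, and the default edgeR filter removed 0 genes. Libraries of a group differed by more than sampling noise in every pair.

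Counts were compared with the robust quasi-likelihood test of edgeR 4.0.16 in R 4.3.3, with TMM scaling and Benjamini-Hochberg adjustment over all genes, and adjusted p-values in the text without another tool's name are from it. Group was the only term; further models added the title code, used the 4 genotype labels over all 10 libraries, or fitted group within each code. SE is the log2 fold change over the square root of F. Single genes were also compared by a two-sided exact permutation test over the 252 arrangements of the libraries. Alternatives were DESeq2 1.42.0, limma-voom (limma 3.58.1), edgeR's likelihood-ratio test, other scalings, a CPM filter, a Y-linked score as a term, B1 libraries only and leaving out each library. The models of group alone and of group with the title code were run on simulated counts that held a group effect only. The model of the genotype labels and that of group within each code were not. Intervals are at 95% and cover counting error and spread between libraries.

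The 10 genes and the lists were chosen with earlier results of these data known. Named were the 10 genes, list genes with an adjusted p under 0.05 without or with the title code, otherwise the 2 of smallest p in a list, and the 3 genes of highest Pearson r with each of the 10 on log2 CPM (prior count 2), predicted genes skipped. Also named were the 3 lower precursor markers, and the lower receptors and ligands of the lineage, with an unadjusted p under 0.05. From lists of other cell types the text names only genes that changed, and of the closest genes it gives 1 to 3 per gene.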

Additional observations from a re-analysis of the deposited data

Results flagged for a closer look

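In a check of 26 genes, each in both groups (52 groups of 5 libraries), 2 values stood far from the rest of their group, where chance marks about 1 in 20 groups. Cacng4, the AMPA receptor subunit of precursor cells, was at 21.8 CPM in BrapcKO 06, against 27.7 CPM in the next library, and this gap was 0.773 of the group's range. Mki67, a gene of dividing cells, was at 20.4 CPM in BrapcKO 05, against 9.49 CPM in the next library, and this gap was 0.716 of the range. BrapcKO 05 also held the highest Gpr17 (106.5 CPM), Enpp6 (19.1 CPM) and Neu4 (15.6 CPM) of the 10 libraries. The same library was highest in Sox10 (27.1 CPM), Cspg4 (43.5 CPM) and Vcan (62.1 CPM) and lowest in Pdgfra (78.8 CPM).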

How the results depend on the processing

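Vcan rose in BrapcKO under DESeq2 (adjusted p = 0.00082), limma-voom (0.023), library totals (0.024), the likelihood-ratio test (0.014), median-ratio factors (0.028) and the CPM filter (0.028). With the Y-linked score, with it and the title code (log2 0.46, adjusted p = 0.08) and in B1 libraries alone (0.33, adjusted p = 0.094), 0 of the 10 genes were called; over leave-outs 0 to 1 were. Genes changed numbered 617, 1186 by DESeq2, 1152 with the title code, 94 with the Y-linked score, 322 with both and 275 to 600 over leave-outs (275 without control 23, 303 without BrapcKO 07, 363 without BrapcKO 06, 395 without control 22, 400 without control 09). With the code, leave-outs gave 406 to 1454 (406 without BrapcKO 21, 516 without control 09, 558 without control 08), with 0 to 1 of the 10 called (0 without BrapcKO 21). For B2 against B1 they gave 1 to 3 (1 without control 08, 3 without BrapcKO 21). By genotype, DESeq2 called 1 of the 10 for flox/flox, 1 for flox/ko against flox/wt (also 1 with the code, Vcan 0.42, adjusted p = 0.049) and 2 between the Cre+ labels, where leave-outs gave 0 to 1. Directions reversed were Gpr17 with the code by limma-voom (-0.003), Enpp6 by library totals (0.006), Olig1 with the code (0.31), and with the Y-linked score Gpr17 (-0.021), Bcas1 (-0.176) and Igf1r (0.008). With both terms they were Gpr17 (-0.185), Olig1 (0.22), Bcas1 (-0.21) and Enpp1 (-0.033), and in B1 alone Sox10 (0.10), Olig1 (0.51), Olig2 (0.077) and Pdgfb (-0.03). Leave-outs ran across 0 for Gpr17 (-0.141 to 0.334), Sox10 (-0.277 to 0.027), Olig1 (-0.219 to 0.025), Bcas1 (-0.002 to 0.28) and Enpp6 (-0.38 to 0.145), and with the code for Gpr17 (-0.157 to 0.272), Sox10 (-0.406 to 0.1) and Olig2 (-0.295 to 0.072). Over all 21 alternatives for BrapcKO against control, Enpp6 ran further, from -0.923 to 0.145. The causes were not tested. No paired analysis was possible because the groups share no replicate number. Enpp6 (90 to 340 reads per library) and Neu4 (145 to 337) had the lowest counts of the 10.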
